A study of Homo sapiens with 16 samples.

Results

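The genes of the cytosolic ribosomal proteins were followed across 16 RNA libraries. The cells were HEK293, a line from human embryonic kidney. Members were taken by symbol alone: RPL or RPS followed by digits and at most 1 letter A, L or X, together with RPLP0, RPLP1, RPLP2 and RPSA, leaving out pseudogenes, the RPS6K kinases and Y-linked copies. This gave 79 of 20802 gene targets, 48 for proteins of the large ribosomal subunit and 31 for the small subunit. A low-count filter kept 77 of them (46 large, 31 small). The other two, RPL3L and RPL10L, which are copies of RPL3 and RPL10 known from muscle and testis, had 16 and 6 reads in all libraries together.

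There were 2 genotypes, labelled wild-type receptors and optimized receptors, in a series that asks how the arrangement of Janus kinases on their receptors bears on type I and type III interferons. Both were studied without ligand and with 100 nM of IFNw (interferon omega, a type I interferon), IFNL3 (interferon lambda 3, a type III interferon) or H11, a form of IFNL3 labelled high-affinity. Treatment lasted 15 min by 1 label, while another reads 24 hr for all libraries, untreated ones included; the link between these times is not stated. Each of the 8 groups had 2 libraries. They are called biological replicates, but nothing says that they came from separate cultures, so p-values measure only the spread between these libraries. Controls were untreated, not mock-treated. The labels do not say how receptors were changed or whether a genotype is 1 clone.

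A cytosolic ribosome joins a small subunit, which decodes mRNA, to a large subunit, which forms peptide bonds, and each holds 1 copy of nearly every ribosomal protein. Because the proteins are needed in equal numbers, their genes are known to be expressed together, and their mRNAs typically begin with a C followed by a run of pyrimidines, the terminal oligopyrimidine tract, through which growth signals set how fast they are translated. Interferons act through Janus kinases on antiviral genes, and some antiviral products act on translation.

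Library totals ran from 5331203 to 9822088 reads. Replicates differed by more than sampling noise in every group, so none was counted as a repeat of another. Replicate 2 of untreated optimized cells stood apart: its log2 levels correlated with replicate 1 at r = 0.965 over all tested genes, where the other 7 groups gave 0.983 to 0.986, and it held the lowest total. Among members, RPS13 was at 814 CPM there against 3244 in replicate 1, and RPS21 at 994 against 3516 (RPS13 is named because it differed most between these replicates). CPM, the usual depth-scaled read count, is computed here on library totals scaled with TMM factors. Several counts of called members that use these libraries are given with and without replicate 2 where each is first stated. Other values are given with both replicates unless said. Of the markers checked, VIM lay between 271 and 542 CPM and the proliferation marker MKI67 between 45.8 and 161 CPM in all libraries (by group further on), the neurofilament genes NEFL and NEFM known from this line were at most 0.87 CPM, and ALB, SERPINA1, COL1A2 and LUM, which mark hepatocytes and fibroblasts, had no read. Other markers of those cells and of blood cells (PTPRC, CD3E, CD14, HBB, DCN and APOA1) reached at most 0.783 CPM, except the collagen gene COL1A1 at 7.93 to 20.6 CPM.

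The start sequences of 10 members are shown, because the tract is the feature for which these mRNAs are known and because members with and without it are found both among those with large changes and among those that moved unlike the rest. They hold 10 bases before the annotated first base and 20 from it on, are taken from RefSeq on GRCh38.p14 (the counts were made on hg19), and the tract is in capitals, taken as C followed by C or T, at least 5 bases in all, read on the transcribed strand only.
RPS27, chr1:153990752-153990781, plus strand: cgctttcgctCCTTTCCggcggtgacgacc
RPL39, chrX:119791611-119791640, minus strand: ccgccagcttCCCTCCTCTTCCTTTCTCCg
RPL35, chr9:124861938-124861967, minus strand: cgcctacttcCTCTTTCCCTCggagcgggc
RPS14, chr5:150449720-150449749, minus strand: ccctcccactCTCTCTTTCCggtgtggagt
RPL22, chr1:6199576-6199605, minus strand: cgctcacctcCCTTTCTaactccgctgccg
RPLP2, chr11:809957-809986, plus strand: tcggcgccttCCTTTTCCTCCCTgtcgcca
RPS7, chr2:3575250-3575279, plus strand: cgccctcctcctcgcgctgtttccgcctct
RPS29, chr14:49598691-49598720, minus strand: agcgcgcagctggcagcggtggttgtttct
RPS4X, chrX:72277229-72277258, minus strand: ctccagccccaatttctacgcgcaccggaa
RPS28, chr19:8321486-8321515, plus strand: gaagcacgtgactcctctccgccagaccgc
Of the members, 63 matched a start in the RefSeq table and 45 of these had a tract at 1 of their starts (27 of 38 large, 18 of 25 small). The tract stood at 57.7% of the members' 78 starts and at 4.07% of all 35116 starts. Its length ran from 6 to 19 bases with a median of 8. The sequences of RPS7, RPS29, RPS4X and RPS28, which hold no tract by this measure, say only that these letters are not at the annotated base.

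Reads on members made up a larger or smaller part of the library depending on ligand and receptor. In untreated cells they took 22.4% and 22.3% of reads (wild-type receptors) and 22.2% and 21.8% (optimized receptors). With IFNw the share was 24.1% and 24.2% in wild-type cells and 24.5% and 24.3% in optimized cells. With H11 it was 14.3% and 14.5% in wild-type cells but 24.1% and 24.0% in optimized cells. With IFNL3 it was 14.10% and 14.02% in wild-type cells and 20.8% and 20.5% in optimized cells. The 4 wild-type libraries with a type III ligand thus held a lower share than all 12 others, and the replicates of a group lay closer together than these groups lay to the others. With 2 libraries against 2, an exact two-sided permutation test of 1 value cannot go below p = 0.333, so these shares carry no p.

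**Figure D1:**
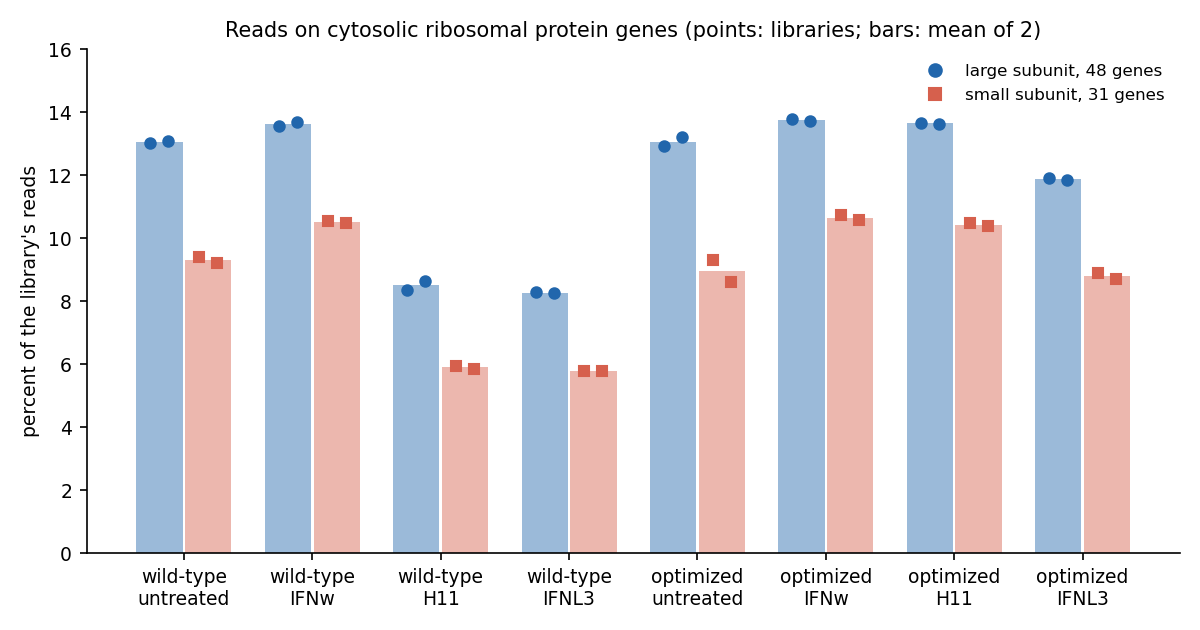
Percent of each library's reads on large subunit genes (blue circles) and small subunit genes (red squares) in the 8 groups; bars are the mean of 2 libraries. Wild-type libraries with H11 or IFNL3 lie below all other libraries for both subunits.

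Both subunits had a part in this. Large subunit genes took between 12.9% and 13.2% of reads in untreated libraries and between 8.25% and 8.64% in wild-type libraries with H11 or IFNL3, and small subunit genes took between 8.60% and 9.40% and between 5.78% and 5.94%. The ratio of large to small subunit reads was 1.39 and 1.42 in untreated wild-type cells, 1.29 and 1.31 with IFNw, 1.41 and 1.47 with H11 and 1.44 and 1.43 with IFNL3. In optimized cells it was 1.39 and 1.54 untreated, 1.28 and 1.30 with IFNw, 1.30 and 1.31 with H11 and 1.34 and 1.36 with IFNL3. The 1.54 is the library that stood apart. The ratio was therefore lower with IFNw than in untreated cells of either genotype, and in wild-type cells with a type III ligand it overlapped or lay just above the untreated libraries.

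In wild-type cells, most ribosomal protein mRNAs fell with H11. Of the 77 members, 63 fell and 3 rose at an adjusted p under 0.05 (edgeR's quasi-likelihood test on all 16 libraries, Benjamini-Hochberg over 12704 genes), where 38.8% of all tested genes were called (18.2% higher, 20.6% lower). The median log2 fold change of members was -0.88, against -0.02 over all genes. With IFNL3 the counts were again 63 and 3 and the median -0.92, where 39.7% of all genes were called (18.7% higher, 21.1% lower). The same untreated libraries stand in both comparisons, so they are not independent. Both subunits took part: 37 of 46 large and 26 of 31 small subunit genes fell with either ligand, with medians of -0.89 and -0.87 for H11 and -0.94 and -0.92 for IFNL3.

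RPS27, a zinc-binding protein of the small subunit, started from 1450.2 and 1268 CPM without ligand. It stood at 465 and 283 CPM with H11 and at 442 and 425 CPM with IFNL3. The groups did not overlap. Its log2 fold change was -1.86 ± 0.17 (SE) with H11, a level 3.63-fold lower, and -1.65 ± 0.16 with IFNL3. RPL39, a small protein lining the exit tunnel of the large subunit, was at 4108 and 3470.2 CPM untreated, 1221 and 1182 CPM with H11 and 1310.3 and 1161 CPM with IFNL3. It fell by 1.66 ± 0.12 and 1.62 ± 0.12 on the log2 scale. RPS29, another zinc-binding protein of the small subunit, had the largest called fall, from 92.4 and 82.8 CPM to 20.9 and 22.3 CPM with H11 and 19.1 and 23.6 CPM with IFNL3 (-2.02 ± 0.17 and -2.03 ± 0.17). RPS24, named here because of its low counts, had an estimate as low (-2.08 ± 0.86 with H11), but it had 114 reads in all libraries together and its adjusted p was 0.0647.

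Members with roles of their own moved with the rest in these cells. RPL10, which completes the large subunit late in its assembly, fell by 1.34 ± 0.14 with H11, from 7515 and 6569 CPM to 2612 and 2942 CPM. RPL13A, also known as a translational silencer in interferon-gamma-treated myeloid cells, fell by 1.36 ± 0.11, from 2587 and 2507 CPM to 974 and 1008 CPM. RPS6, the target of the S6 kinases, fell by 0.68 ± 0.12, and RPS27A, made as a fusion with ubiquitin, by 0.83 ± 0.12. RPS19, the gene first linked to Diamond-Blackfan anaemia, fell by 0.84 ± 0.11. RPL3, which helps shape the peptidyl transferase centre, fell by 0.87 ± 0.12. All 6 fell with IFNL3 as well.

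Members that work as small complexes did not all move together. Of the stalk proteins, which recruit elongation factors, RPLP0 fell by 1.12 ± 0.12 with H11 and RPLP1 by 0.88 ± 0.15, whereas RPLP2 was at 3637 and 4871 CPM untreated and 3647 and 3940.1 CPM with H11 (-0.17 ± 0.13, adjusted p = 0.334). RPL5 and RPL11, which enter the large subunit as a complex with a small ribosomal RNA and, outside the ribosome, bind the p53 regulator MDM2, gave -0.89 ± 0.11 and -0.25 ± 0.12 with H11, and only RPL5 was called (adjusted p 6.33e-06 against 0.0955). With IFNL3 both were called. Of the 18 measured genes of the Diamond-Blackfan list, 15 (83.3%) fell with H11 and 16 (88.9%) with IFNL3, beside 81.8% of all members with either ligand.

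**Figure D2:**
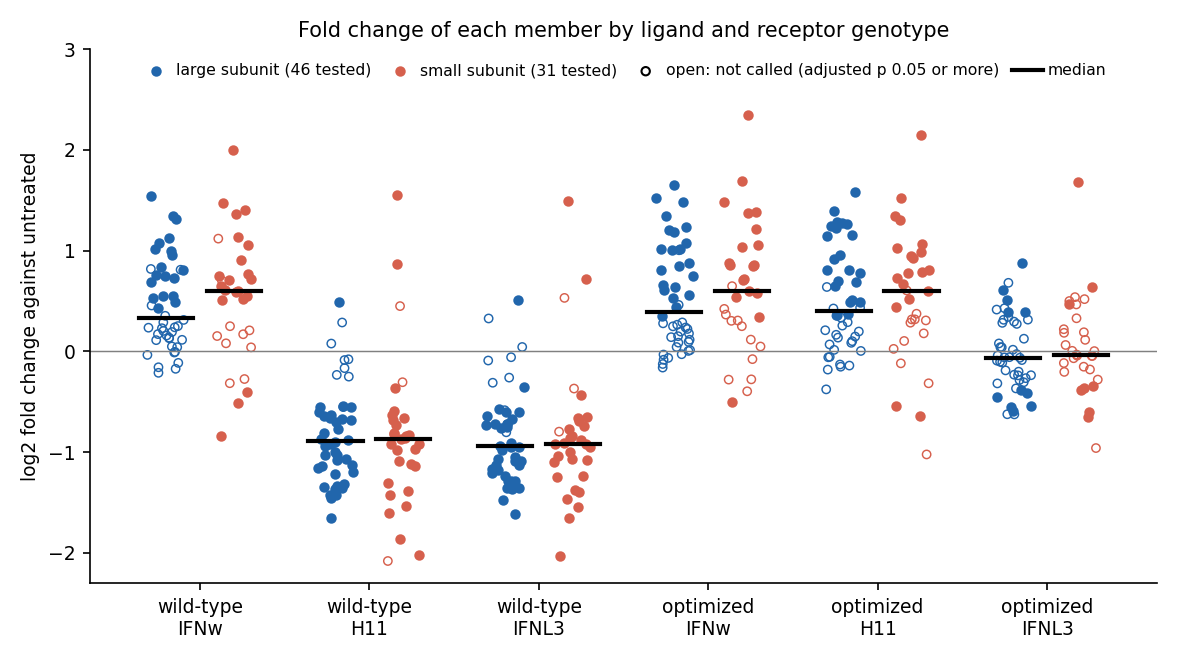
Log2 fold change against untreated cells of the same genotype for each of the 77 tested members, by ligand and genotype (blue, large subunit; red, small subunit; filled, called at an adjusted p under 0.05; black line, median). Members lie mostly below 0 in wild-type cells with H11 or IFNL3, mostly above 0 with IFNw and in optimized cells with H11, and on both sides with IFNL3 in optimized cells.

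With IFNw, most of the members that were called rose, in both genotypes, but on library totals alone the split was 21 up and 14 down (median 0.16) in wild-type and 26 and 13 (0.14) in optimized cells. On that scale 1146 of all 12704 genes were called up and 4548 down in wild-type cells, and 1103 and 4808 in optimized cells. By the main scaling 37 of 77 members rose and 3 fell in wild-type cells, where 31.4% of all genes were called (16.6% higher, 14.8% lower), and the median was 0.51 against -0.05 for all genes. In optimized cells 40 rose and 1 fell, where 33.4% were called (17.5% higher, 15.9% lower), and the median was 0.53. Without replicate 2 of untreated optimized cells these were 41 and 2 with a median of 0.49. RPS27 rose to 3660.4 and 3363 CPM in wild-type cells (1.37 ± 0.16), RPL39 to 8036 and 7299 CPM (1.02 ± 0.12), and RPL35, a protein at the tunnel exit, from 3114 and 2886 to 7581 and 7345 CPM (1.31 ± 0.14). Several members with roles of their own were not called: RPLP0 gave 0.25 ± 0.12 (adjusted p = 0.119), RPL5 -0.00 ± 0.10 (adjusted p = 0.983), RPL3 -0.16 ± 0.12 (adjusted p = 0.357) and RPS6 -0.27 ± 0.12 (adjusted p = 0.0922) in wild-type cells.

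With H11 in optimized cells most called members rose too, against the same untreated libraries as for IFNw. On library totals alone it was 25 up and 16 down with a median of 0.07, where 1118 and 4572 of all 12704 genes were called. With the length offset it was 26 and 8 (0.18), where 1924 and 1380 of 11662 genes were called. The difference between these ligands was not tested there, and the counts that follow are by the main scaling. In all, 39 members rose and 2 fell, where 32.4% of all genes were called (17.2% higher, 15.2% lower), with a median of 0.45, and 41 and 3 with a median of 0.47 without replicate 2 of the untreated cells. RPL39 went from 3427 and 3399 CPM to 8281 and 7674 CPM (1.23 ± 0.12), and RPL26, a protein near the tunnel exit that also binds p53 mRNA, from 3838 and 4607 to 10223 and 9737 CPM (1.24 ± 0.11).

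IFNL3 in optimized cells divided the members: 8 rose and 11 fell, where 13.3% of all genes were called (7.26% higher, 6.05% lower), and the median was -0.04. Among the members that rose were RPS14, RPL22, RPS7, RPL35, RPL37, RPL26 and RPL39, all of which also rose with IFNw in these cells. Those with the largest falls were RPS29 (-0.65 ± 0.16), RPS16 (-0.60 ± 0.14) and RPLP0 (-0.59 ± 0.12). Single libraries decided how many members were called, and the number called among all genes moved with them. The members' median was -0.05 without replicate 2 of untreated cells and -0.05 without replicate 1. It was -0.03 or -0.02 without replicate 1 or 2 of the IFNL3-treated cells. Only RPS14 was called in the same direction under each of these.

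The direct comparison of genotypes separated the type III ligands from IFNw. In untreated cells and with IFNw, 0 members differed between optimized and wild-type cells by edgeR, as 0% of all genes did, and DESeq2 gave 0 as well. At an unadjusted p under 0.05 there were 6 members of 705 genes in untreated cells and 3 of 439 with IFNw. The members' median in untreated cells was -0.02. Without replicate 1 of untreated optimized cells, which leaves the library that stood apart on its own, it was -0.04. Without replicate 2 it was -0.02. Whether any member was called in untreated cells depended on which of these libraries was kept. With H11, 66 of 77 members were higher in optimized cells and none lower, where 51.7% of all genes were called (25.6% higher, 26.1% lower), with a median of 1.30. With IFNL3, 64 were higher and none lower, where 33.2% were called (18.1% higher, 15.1% lower), with a median of 0.81.

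Between genotypes RPS27 showed the widest gap of the members, with 3224 and 3177 CPM in optimized cells against 465 and 283 CPM in wild-type cells under H11, an 8.55-fold difference (3.10 ± 0.17, adjusted p 3.34e-10). RPL39 (2.73 ± 0.13, 6.64-fold) and its copy RPL39L, known from testis and tumour cells (2.58 ± 0.13), came next. Under IFNL3, RPS27 was at 1654 and 1596 CPM against 442 and 425 CPM (1.91 ± 0.17), and RPL39 at 4908 and 4025 CPM against 1310.3 and 1161 CPM (1.85 ± 0.13). In each of these pairs the higher group lay wholly above the lower one.

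**Figure D3:**
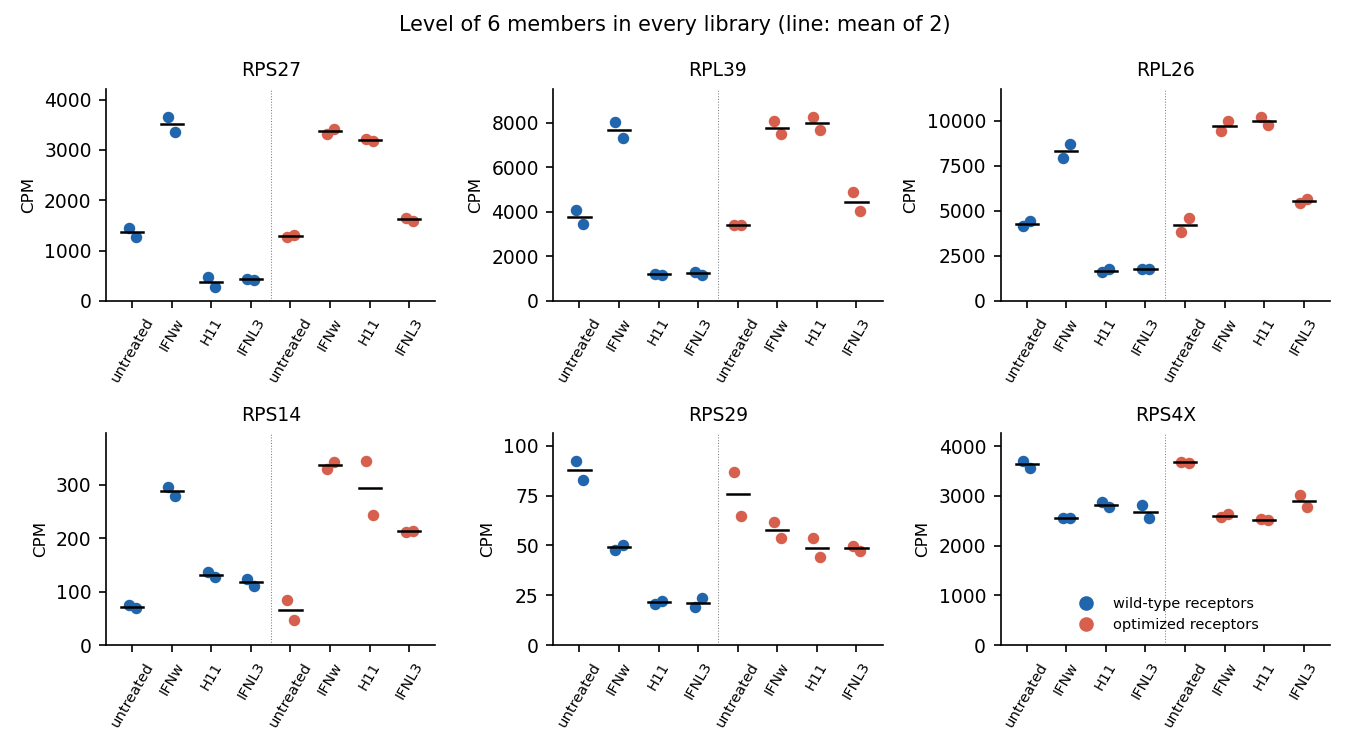
Level in CPM (TMM-scaled) of 6 members in each library; points are libraries, lines the mean of 2, blue for wild-type and red for optimized receptors. RPS27, RPL39 and RPL26 are lowest in wild-type cells with H11 or IFNL3, RPS14 is above untreated in every treated group, and RPS29 and RPS4X are below untreated in every treated group.

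The difference between the genotypes' responses was tested as an interaction. For H11, 64 members responded more positively in optimized than in wild-type cells and none less, where 36.9% of all genes were called (19.5% higher, 17.4% lower), with a median of 1.24; without replicate 2 of untreated optimized cells it was 63. For IFNL3 it was 55 and none, where 18.4% were called (11.1% higher, 7.31% lower), with a median of 0.77, and 58 without that library. On library totals alone 41 members responded more positively and 2 less for H11, where 1140 and 5348 of all genes did. For IFNL3 it was 31 and 0, where 727 and 2611 did. With the transcript length offset it was 46 and 2 for H11 (2010 and 1504 of 11662 genes). For IFNL3 it was then 31 and 0 (964 and 666). RPL39 gave 2.005 ± 0.17 and RPS27 1.98 ± 0.23 in the IFNL3 interaction by the main scaling. For IFNw 0 members were called by edgeR and by DESeq2, as were 0% of all genes, with a median of 0.08. Without replicate 1 of untreated optimized cells the median was 0.11, and without replicate 2 it was 0.04. Whether any member was called for IFNw again depended on which of these libraries was kept.

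The same ligand in the 2 genotypes uses no common library, so their fold changes can be set side by side. For IFNw, 35 members rose in both, out of 37 and 40, and Pearson's r across the 77 members was 0.86. For H11, 32 members fell in wild-type cells and rose in optimized cells, 3 rose in both and 2 fell in both, with r = 0.11. Among the 61 members with a mean of 200 CPM or more (a boundary chosen after the values were seen) r was -0.67 for H11, so that among these, deeper falls in wild-type cells tended to go with larger rises in optimized cells. For IFNL3, 11 fell in both and 5 fell in wild-type but rose in optimized cells, with r = 0.29 over the 77 and -0.21 over the 61. These correlations are across genes measured in the same libraries and carry no p. The joint counts and r are by the main scaling and were not computed over all genes. Of all genes, 31.4% were called with IFNw in wild-type and 33.4% in optimized cells, 38.8% and 32.4% with H11, and 39.7% and 13.3% with IFNL3. On library totals alone, 25 members rose and 16 fell with H11 in optimized cells.

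**Figure D4:**
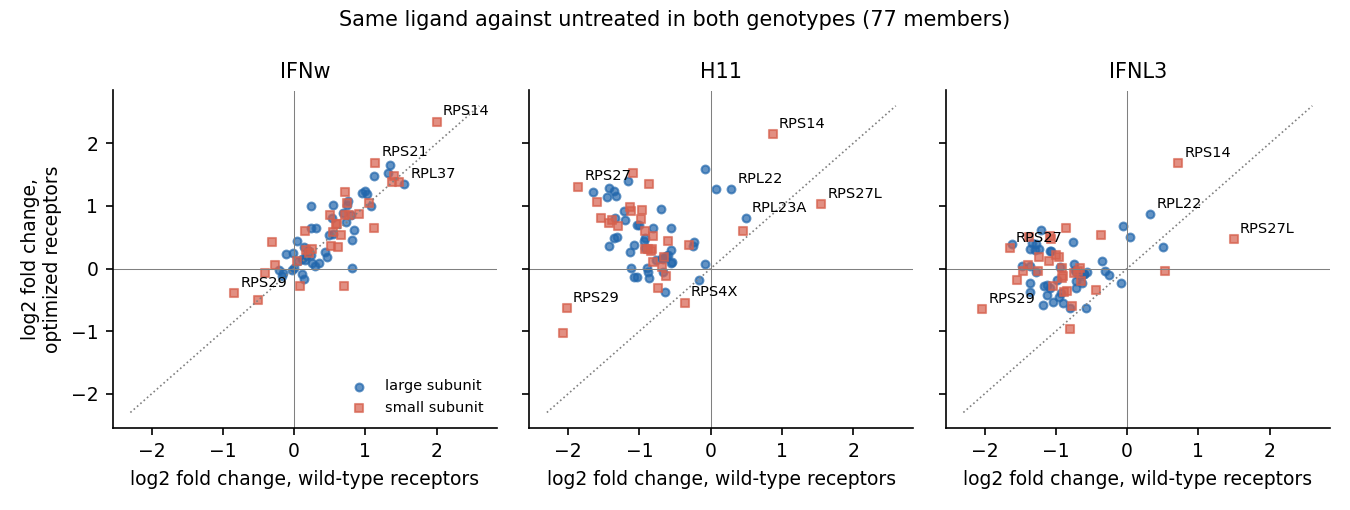
Log2 fold change against untreated in wild-type cells (horizontal) and optimized cells (vertical) for 77 members under IFNw, H11 and IFNL3; the dotted line marks equal change. Points follow the line for IFNw (r = 0.86) and lie mostly in the upper left for H11, where 32 members fell in wild-type and rose in optimized cells.

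The ligands were also compared within a genotype. In wild-type cells no member differed between H11 and IFNL3 by edgeR or by DESeq2, where 0% of all genes were called, none had an unadjusted p under 0.05 (158 of all genes did), and for 73 of 77 members the 95% interval of the difference lay within 2-fold. In optimized cells 43 members were higher with H11 than with IFNL3 and none lower, where 17.6% of all genes were called (10.7% higher, 6.86% lower), with a median of 0.49. The largest were RPS15A (0.99 ± 0.11), RPS27 (0.98 ± 0.16) and RPL30 (0.97 ± 0.11), the last a protein at the interface of the subunits. With 1 of these libraries left out the median ran from 0.468 to 0.573. Fewer members were then called each time, as were fewer of all genes. Members were also higher with IFNw than with IFNL3, 67 of 77 in wild-type cells (53.1% of all genes called, 25.9% higher and 27.2% lower). In optimized cells 48 were (19.1% called, 11.5% higher and 7.58% lower). The median there was 0.59, and 0.54 without replicate 2 of the IFNL3-treated cells.

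Some members did not follow the others. RPS14, a protein of the small subunit's platform, had 74.7 and 68.8 CPM in wild-type cells without ligand and 295.9 and 279 CPM with IFNw. H11 gave 136 and 126 CPM and IFNL3 gave 124 and 111 CPM. It rose with all 3 ligands (2.004 ± 0.20, 0.87 ± 0.20 and 0.72 ± 0.20). In optimized cells it went from 84.2 and 46.6 CPM to 329 and 343 CPM with IFNw, 344 and 243 CPM with H11 and 212 and 213 CPM with IFNL3 (2.35 ± 0.21, 2.15 ± 0.20 and 1.68 ± 0.20), the largest called rise of any member in each of these 3 comparisons. RPS27L, the copy of RPS27 known as a p53 target, rose with every ligand in wild-type cells (1.48 ± 0.39, 1.55 ± 0.37 and 1.498 ± 0.37), on levels of 2.06 and 3.19 CPM untreated and 5.19 to 9.78 CPM treated, while RPS27 itself rose with IFNw and fell with H11 and IFNL3. RPL23A, near the tunnel exit, rose too (0.80 ± 0.14, 0.49 ± 0.14 and 0.51 ± 0.14). With H11 and IFNL3 in wild-type cells these were the only 3 called higher. The IFNL3 call of each was lost when 1 of 2 libraries was left out. Without replicate 1 of the IFNL3-treated cells RPS14 was at 0.64 and RPL23A at 0.37, and without replicate 2 of the untreated cells at 0.66 and 0.42. RPS27L was at 0.97 without replicate 2 of the IFNL3-treated cells and at 1.23 without replicate 1 of the untreated cells. The H11 call of RPL23A was lost without replicate 1 of the H11-treated cells (0.47) and without replicate 2 of the untreated cells (0.40).

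RPL22, RPL9 and RPL37, all of the large subunit, rose with IFNw in wild-type cells (1.13 ± 0.20, 1.35 ± 0.24 and 1.54 ± 0.14) but were not called with H11 there, with 0.29 ± 0.20, -0.09 ± 0.23 and 0.08 ± 0.13. RPS29 went the other way, below untreated with IFNw (-0.84 ± 0.16 in wild-type cells, -0.40 ± 0.16 with an adjusted p of 0.0652 in optimized cells). RPS4X, the X-linked small subunit protein, fell with every ligand in both genotypes: from 3705 and 3565 CPM to 2549.9 and 2549 CPM with IFNw in wild-type cells (-0.51 ± 0.10), and from 3687 and 3664 CPM to 2528 and 2507 CPM with H11 in optimized cells (-0.55 ± 0.10). RPS28 fell with IFNw in wild-type cells (-0.41 ± 0.13) and gave -0.08 ± 0.13 (adjusted p = 0.695) in optimized cells. RPLP2 was not called with any ligand in either genotype.

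The copy RPL39L was at 78.9 and 87.0 CPM untreated, 159 and 172 CPM with IFNw, 27.6 and 34.0 CPM with H11 and 32.6 and 32.0 CPM with IFNL3 when receptors were wild-type, the order of RPL39 at lower counts. The labels do not say how reads were divided between near-identical copies, so the values of RPL39L and RPL39 are uncertain.

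Read counts of members spread widely, with RPL4 at 9202 CPM on average and RPS24 and RPSA, the lowest of those tested, at 0.85 and 0.82 CPM. Each gene was counted at a target of unknown position and length, so these are not levels per length and give no order of mRNA abundance. RPS14, RPS27L, RPL23A and RPS29 are among the 16 tested members below 200 CPM on average, and so are RPL22 (191 CPM), RPL9 (191 CPM) and RPL37 (138 CPM). With H11 in wild-type cells the median of these 16 was -0.16 (3 up, 5 down), against -0.92 (0 up, 58 down) for the 61 others; with IFNw it was 0.91 against 0.31.

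The subunits' medians lay close together with type III ligands in wild-type cells and with IFNL3 in optimized cells. With IFNw the large subunit median was the lower one whichever receptors the cells had. It was also lower in optimized cells given H11. These gaps stayed negative when any single library of the compared groups was left out, though their size changed. The large subunit median minus the small subunit median was -0.27 with IFNw, -0.01 with H11 and -0.02 with IFNL3 in wild-type cells, and -0.21, -0.20 and -0.03 in optimized cells. Single libraries moved the values in optimized cells: without replicate 2 of untreated cells they were -0.18, -0.11 and 0.09, for H11 the value was -0.07 without replicate 1 of the H11-treated cells, and for IFNL3 they ran from -0.15 to 0.09. In wild-type cells the value for IFNw ran from -0.32 to -0.15, and those for H11 and IFNL3 had either sign. A different gap, between the subunits' median log2 levels in each library, varied between replicates with a pooled SD of 0.16. It is not a gap of fold changes, so it does not give the spread of the values above. A further measure was the mean log2 deviation from each gene's mean over all libraries, large minus small subunit. In wild-type cells it was 0.0035 untreated, -0.0627 with IFNw, 0.0375 with H11 and 0.002 with IFNL3. In optimized cells it was 0.0669, -0.0439, 0.0204 and -0.0236. Replicate SDs of this measure ran from 0.00099 (wild-type IFNw) to 0.109 (untreated optimized cells). With IFNw in wild-type cells 19 of 46 large and 18 of 31 small subunit genes rose. In optimized cells it was 22 and 18 with IFNw and 22 and 17 with H11.

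Transcript length moved with the same groups. Members are short: the median transcript of those tested was 705 bases (359 for RPS27, the shortest, to 1864 for RPL4), against 2250 for the 11662 tested genes with a length, and it was 710.5 for large and 693 for small subunit genes. Across all those genes, level relative to the 16-library mean correlated with length at Spearman's rho of 0.35 to 0.38 in wild-type libraries with H11 or IFNL3 and of -0.38 to -0.40 in libraries with IFNw and in optimized libraries with H11. It lay between 0.066 and 0.15 in the 6 others. After a spline on transcript length was removed from each library, the members' median was 0.16 with IFNw, -0.64 with H11 and -0.66 with IFNL3 in wild-type cells, and 0.17, 0.18 and -0.08 in optimized cells. The counts became 21 up and 7 down, 5 and 55, 4 and 58, 28 and 5, 26 and 8, and 8 and 12. Of the 11662 genes, 1776 were called up and 1232 down, 1996 and 2179, 2024 and 2229, 2003 and 1360, 1924 and 1380, and 896 and 721. Between genotypes 52 members were then higher and 2 lower with H11 (median 0.74), and 42 and 1 with IFNL3 (0.48). Of the 11662 genes, 2813 were higher and 2458 lower with H11, and 1758 and 1468 with IFNL3. The part of length in the rest was not tested, since amplicon lengths were not used here.

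Among the members themselves, rho between length and fold change was -0.27 with IFNw, 0.06 with H11 and 0.05 with IFNL3 in wild-type cells, and -0.28, -0.25 and -0.27 in optimized cells. Between genotypes it was -0.21 with H11 and -0.25 with IFNL3. RPS27 and RPL39, the members with the shortest transcripts, kept falls of 1.71 and 1.47 with H11 after the offset, RPS29 one of 1.74 with a transcript of 677 bases, and RPS14 kept a rise of 1.14.

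Several markers of the line moved with the same groups, but not all did. MKI67, known from dividing cells, stood at 110.2 and 119.6 CPM without ligand and wild-type receptors, 50.1 and 57.1 CPM with IFNw, 137.7 and 149.5 CPM with H11 and 141.5 and 161.4 CPM with IFNL3. In optimized cells it was at 93.4 and 137.1 CPM untreated, 45.8 and 47.7 CPM with IFNw, 52.5 and 60.8 CPM with H11 and 97.5 and 95.2 CPM with IFNL3. It was thus low in the libraries in which most called members rose (-1.10 ± 0.16 with IFNw in wild-type cells). VIM fell there too (-0.62 ± 0.12), and the keratin gene KRT8 rose with IFNw (0.71 ± 0.19) and fell with H11 (-0.96 ± 0.20) in wild-type cells. VIM stood at 493 and 484 CPM untreated in those cells, and at 542 and 504 CPM with H11. KRT18 went from 52.7 and 48.6 CPM to 61.5 and 65.8 with IFNw and 33.2 and 37.0 with H11. PAX2 went from 1.19 and 1.99 CPM to 0.97 and 0.92, and 4.17 and 3.14. L1CAM was lower with both, from 5.75 and 9.57 CPM to 2.23 and 3.94, and 3.48 and 4.47. The part of these differences in the members' changes was not tested.

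Scaled by library totals alone, without TMM factors, the median over all genes was -0.40 with IFNw, 0.25 with H11 and 0.27 with IFNL3 in wild-type cells and -0.43, -0.40 and -0.07 in optimized cells. With TMM factors it was -0.05, -0.02, -0.01, -0.04, -0.03 and -0.01. TMM factors were 0.80 to 0.84 in libraries with IFNw and in optimized libraries with H11, and 1.26 to 1.28 in wild-type libraries with a type III ligand. On that scale the members' medians were 0.16, -0.61, -0.64, 0.14, 0.07 and -0.11, which relative to all genes is 0.56, -0.86, -0.91, 0.57, 0.47 and -0.04. The calls split as 21 up and 14 down, 4 and 56, 4 and 58, 26 and 13, 25 and 16, and 5 and 13. Of all 12704 genes, 1146 were called up and 4548 down, 4039 and 1589, 4194 and 1596, 1103 and 4808, 1118 and 4572, and 727 and 1003. Between genotypes 52 members were higher and 4 lower with H11 (1502 and 6797 of all genes). With IFNL3 it was 46 and 1 (1206 and 4402 of all genes). The falls in wild-type cells with H11 were called on both scales and with the length offset in 55 of 63 members, and those with IFNL3 in 57 of 63; the rises with IFNw held on all of these in 19 of 37 members in wild-type and 26 of 40 in optimized cells.

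Other genes of translation and of short transcripts were measured beside the members, in lists chosen with the members. Of 7 ribosomal protein genes that the symbol rule leaves out, IFNw raised 3 and lowered 1 when receptors were wild-type, and H11 lowered 5 and raised none. FAU, made as a fusion with a ubiquitin-like protein, gave 1.21 ± 0.13 with IFNw and -0.92 ± 0.13 with H11 in wild-type cells, and RPL22L1 gave 1.34 ± 0.13 and -0.92 ± 0.13. GNB2L1, the scaffold protein RACK1 of the small subunit, fell with IFNw, from 3627 and 3788 CPM to 2581 and 2598 CPM (-0.52 ± 0.12). A further list held translation factors and other mRNAs known for the same tract, among them VIM, NPM1, HNRNPA1, NAP1L1 and TPT1. Of its 19 tested genes, IFNw raised 5 and lowered 11 when receptors were wild-type (median -0.41), among the latter PABPC1, the poly(A)-binding protein (-1.09 ± 0.13). With H11 in those cells 0 rose and 9 fell (median -0.40), among them TPT1 (-1.26 ± 0.16), and with IFNL3 0 rose and 10 fell (-0.45), so their median lay on the members' side with the type III ligands and on the other side with IFNw. Within the members, those with a tract at an annotated start had a median of 0.52 with IFNw and -0.92 with H11 in wild-type cells (n = 45), and those without one 0.16 and -0.66 (n = 17).

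Mitochondrial ribosomal proteins, which build the separate ribosome of mitochondria, rose with IFNw in 51 of 72 genes and fell in 1 (median 0.78), fell with H11 in 33 (median -0.41) and were higher with H11 in optimized than in wild-type cells in 60 (median 1.14). Of 75 respiratory chain subunits, the nuclear-encoded parts of oxidative phosphorylation, 49 rose with IFNw and 2 fell, 54 fell with H11 and 1 rose. With the length offset the medians were 0.55 and -0.22 for mitochondrial ribosomal proteins, and 0.40 and -0.41 over the 60 respiratory chain genes with a length. With IFNL3 in optimized cells, where the members gave 8 up and 11 down, 21 mitochondrial ribosomal protein genes rose and none fell (median 0.33), and 13 respiratory chain genes rose and 3 fell (0.18). By the main scaling, factors of ribosome assembly had a median above 0 with every ligand in both genotypes. Of 44, IFNw raised 18 and lowered 1 when receptors were wild-type (median 0.27), and 19 rose and 4 fell with H11 in optimized cells (0.24). With H11 in wild-type cells, where most members fell, 27 rose and 5 fell (0.52, and 0.58 with the length offset). The medians of this and the other lists were not taken on library totals alone. On that scale the median over all genes was -0.40 with IFNw in wild-type cells. In optimized cells it was -0.43 with IFNw and -0.40 with H11. NOP2, which methylates ribosomal RNA, rose by 1.47 ± 0.20 with H11 in wild-type cells, and RRS1, needed for the large subunit, rose by 1.37 ± 0.17, beside the falls of most ribosomal protein mRNAs in the same libraries.

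**Figure D5:**
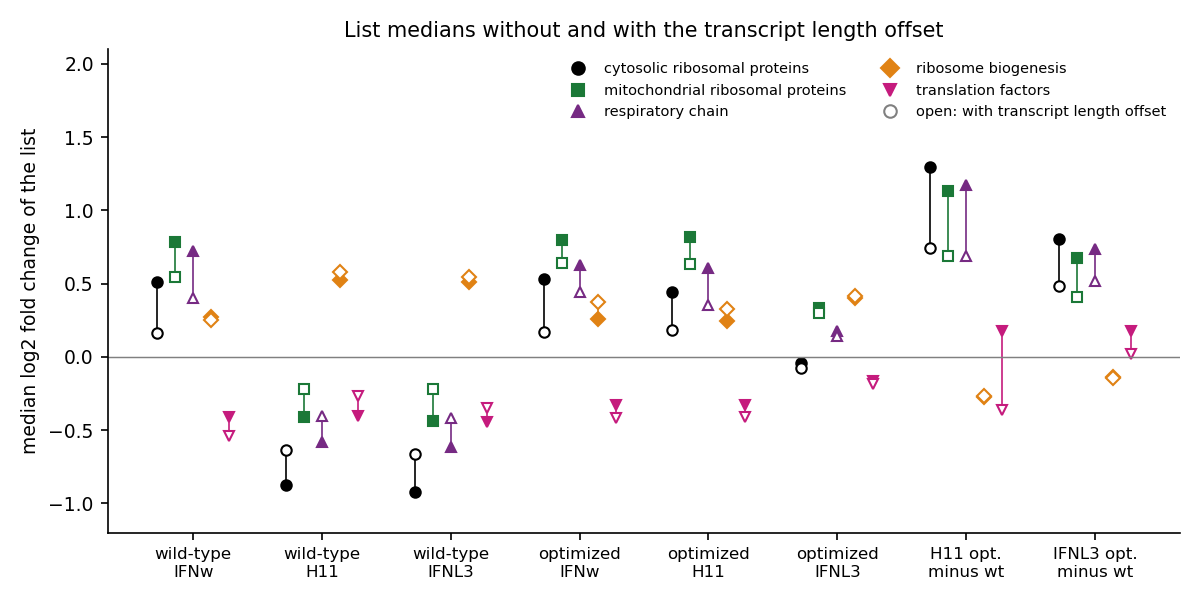
Median log2 fold change of the members and of 4 other gene lists in 8 comparisons, without (filled) and with (open) the transcript length offset. The list marked translation factors also holds other mRNAs known for the tract. With the offset the members' median moves toward 0 with IFNw (0.51 to 0.16 in wild-type, 0.53 to 0.17 in optimized cells). It does so with H11 in optimized cells (0.45 to 0.18) and between genotypes with H11 (1.30 to 0.74) and IFNL3 (0.81 to 0.48). With IFNL3 in optimized cells it goes from -0.04 to -0.08. It also moves toward 0 in the wild-type comparisons with H11 (-0.88 to -0.64) and IFNL3, where that of ribosome biogenesis factors is above 0 either way.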

How the data were processed

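The authors deposited 1 table per library with raw read counts per target, as whole numbers. Genome build hg19 is named in the submitters' processing notes; the aligner, the counter, target positions and use of strand: not given in the sources used here. Libraries were made with an Ion Torrent kit, per the labels' protocols. Of 20812 targets, 10 spike-in controls with at most 1 read were left out. The Entrez cell of 24 members held several numbers run together, so symbols were used.

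Counts were tested with edgeR 4.0.16 (filterByExpr, TMM, quasi-likelihood, 1 coefficient per group over all 16 libraries) and adjusted by Benjamini-Hochberg over 12704 genes, with a threshold of 0.05, in 17 comparisons. The common dispersion was 0.0176. SE is the log2 fold change over the root of the F statistic. Levels are CPM with TMM factors; totals per library set their counting error, and reads were not collapsed by molecule. Transcript length was the median over GENCODE 29 basic protein-coding transcripts, and a natural spline on its log (5 degrees of freedom) gave the length offset. Library-level checks used Python 3.11.15 with pandas 2.3.3.

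On counts simulated for wild-type IFNw against untreated, 200 genes were changed before the low-count filter, which kept 12414 genes. Of the changed genes kept, 6.06% of 66 with a 1.5-fold, 75.4% of 65 with a 2-fold and 95.5% of 66 with a 4-fold change were recovered. The simulation used 1 dispersion for all genes. In the real comparison 31.4% of genes were called, which makes the adjusted threshold less strict, so these rates do not give its sensitivity.

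The members, lists and tests were chosen with earlier results of these data known. Named are, for each comparison, up to 3 called members in each direction with the largest change and every called member opposite to the median; members by role, copies, the 3 highest and 3 lowest by CPM and the 3 shortest and longest; those failing the filter; and up to 3 called genes per direction of each other list. Not every item that this rule names is reported here. As alternatives, the tests were repeated with DESeq2 1.42.0, its size factors in edgeR, library totals alone, the compared groups alone, a block for the replicate number, no filter on low counts, the length offset and each library left out; a coding-length offset and a fit without the wild-type H11 and IFNL3 libraries were added after the data were seen.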

Additional observations from a re-analysis of the deposited data

Results flagged for a closer look

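By the main scaling, the response to H11 differed between the genotypes in 64 members, all more positive in optimized cells, by a test of the difference itself in edgeR's quasi-likelihood fit. On library totals alone it was 41 more positive and 2 less, and with the transcript length offset 46 and 2. Under every alternative 41 of the 64 were called in the same direction. The response to IFNL3 differed in 55 members in the same direction by that test and the main scaling, of which 28 were so called under every alternative. The response to IFNw differed in none.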

How the results depend on the processing

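In the order wild-type IFNw, H11, IFNL3, optimized IFNw, H11, IFNL3 (each against untreated), then optimized against wild-type with H11 and IFNL3, then the H11 and IFNL3 responses, the members' median log2 fold changes were 0.164, -0.61, -0.64, 0.135, 0.0676, -0.11, 0.667, 0.474, 0.589 and 0.421 with library totals alone. With the transcript length offset they were 0.163, -0.637, -0.664, 0.168, 0.181, -0.078, 0.742, 0.482, 0.679 and 0.469, and with the coding length offset, added later, 0.188, -0.651, -0.667, 0.236, 0.206, -0.0846, 0.827, 0.483, 0.766 and 0.478. The H11 response was then called in 43, 48 and 52 members, 2 of them less positive each time, and the IFNL3 response in 31, 31 and 29. H11 against IFNL3 in optimized cells gave 21 calls (median 0.182) on library totals, 16 (0.235) with transcript length and 25 (0.332) with coding length, and IFNw against IFNL3 there 21, 17 and 24. Medians on library totals were -0.00188 for IFNw between genotypes and 0.0232 for the IFNw response.

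With only the groups compared, the median was 0.549 for wild-type IFNw, 0.483 with 24 calls for optimized H11 and 0.0364 for the IFNw response, and optimized IFNL3 had 1 call. Without the wild-type H11 and IFNL3 libraries, added later, wild-type IFNw had a median of 0.549, the IFNw response 0.0364, and optimized IFNL3 12 calls. Without the low-count filter, the optimized IFNw median was 0.464, and there were 3 calls between untreated genotypes and 1 in the IFNw response.

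Leaving out 1 library at a time, medians ran from 0.464 to 0.526 (wild-type IFNw), 0.49 to 0.591 (optimized IFNw), 0.457 to 0.489 (optimized H11), -0.0616 to 0.0113 (untreated), 0.0266 to 0.0762 (IFNw between genotypes), 1.26 to 1.4 (H11), 0.75 to 0.852 (IFNL3), 0.0263 to 0.106, 1.21 to 1.33 and 0.72 to 0.9 (responses to IFNw, H11, IFNL3) and 0.468 to 0.573 (H11 against IFNL3 in optimized cells). Calls ran from 2 to 31 (optimized IFNL3), 0 to 25 (untreated), 0 to 14 (IFNw response), 21 to 33 and 23 to 37 (H11 and IFNw against IFNL3 in optimized cells). Where 1 library is left in a group, its spread is taken from the groups that keep replicates.

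Deviations of same-numbered replicates correlated at 0.085 to 0.21 over 28 pairs of groups, positive in each and over 0.1 in 27. The labels do not say that a number marks a shared culture or day, and the rule that every pair be over 0.1 was missed by 1, so the fit without a block was kept; a shared replicate effect was not tested further. With a replicate block, optimized H11 had 45 members up and 4 down (median 0.493), optimized IFNL3 12 and 14, the IFNL3 response 63 and 0, and H11 and IFNw against IFNL3 in optimized cells 51 and 57 up.

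Of 2904 alternatives to the values of named members, 2662 kept a call in the same direction or stayed uncalled with either sign. A call was lost in 143 and gained in 80, with the direction kept. The other 19 reversed, that is, changed direction with a call in the main fit, in the alternative or in both. With library totals alone the reversed ones were RPLP0 (-0.31 with IFNw, -0.37 with H11), RPL5 (-0.39 and -0.36), RPS6 (-0.35 and -0.35) and RPS19 (-0.0528 with IFNw) in optimized cells, RPL11 (-0.30 with IFNw in wild-type, -0.0135 with H11 in optimized cells) and, between genotypes under H11, RPLP2 (-0.41), RPL11 (-0.13), RPL3 (-0.0047), RPS6 (-0.17) and RPS28 (-0.36). With the transcript length offset they were RPLP2 (-0.41), RPL11 (-0.0701) and RPS6 (-0.10) between genotypes under H11 and RPS19 (-0.0411) with IFNw in optimized cells, and with the coding length offset RPLP2 (-0.36).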
